A study of Mus musculus with 8 samples.

Results

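The matrix metalloproteinases (MMPs), their tissue inhibitors (TIMPs) and the ADAMTS proteases, which carry a disintegrin-like domain and thrombospondin repeats, were followed in lungs of mice with and without Atf4. The genes were taken by name from a list of 39. A gene counted as measured when a transcript cluster, the array's set of probes along a gene, carried its symbol and no other. That held for 38 genes, 19 MMPs, 4 TIMPs and 15 ADAMTS genes, out of 30176 genes with a single symbol and 65956 transcript clusters on the array. Mmp15 had no such cluster and was not analysed here. Each of the 38 had 1 cluster.

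Lungs came from 8 mice aged 13 weeks, taken 4 weeks after tamoxifen, with 1 array a mouse. In the 4 Atf4Δ/Δ mice (Atf4D/D in the labels, here also knockout) tamoxifen had activated a Cre recombinase fused to an oestrogen receptor and expressed from the ubiquitous Rosa26 locus, to excise the floxed part of Atf4 without restriction to a cell type. The study describes this deletion as efficient but incomplete. The 4 Atf4WT/WT mice (Atf4wt/wt in the labels, here also wild-type) carried the same Cre, received tamoxifen too and had intact Atf4, and each group held 3 males and 1 female. Whole lung was used, so that fewer cells of a type and less RNA per cell cannot be told apart. Values are log2 signals from robust multi-array averaging (RMA), and a difference is the knockout mean minus the wild-type mean on that scale. Atf4 itself read 6.99 to 8.03 in the wild-type and 6.26 to 6.48 in the knockout lungs and was called lower (-1.29, adjusted p = 0.0485), with the lowest wild-type value in the array labelled wild-type replicate 1. A gene was called at a limma adjusted p of at most 0.05 over all clusters together with a fold above 1.5.

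MMPs are zinc-dependent enzymes that are made as inactive proenzymes and, once cleaved, cut collagens, elastin and other matrix proteins. TIMPs bind the active site and hold them in check, and several ADAMTS enzymes cut proteoglycans such as versican and aggrecan or process procollagens. In lung, fibroblasts and other stromal cells make gelatinase A (Mmp2) and its activator Mmp14, whereas neutrophils bring collagenase 2 (Mmp8) and gelatinase B (Mmp9) in their granules and carry Mmp25, also called leukolysin, on their membrane.

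Loss of Atf4 went with a large fall of the stromal gelatinase and with higher means of both granule MMPs of neutrophils, while most of the family differed little. Mmp2 fell 4.81-fold and was the single member called. Mmp8 had a 9.43-fold and Mmp9 a 4.72-fold higher mean in the knockout, but their knockout lungs were far apart and neither was called. Of the 38 members, 30 differed by less than 0.3 in either direction, a smaller share than over the array. There 60808 of 65956 clusters and 27447 of 30176 genes with a single symbol did so. Members called lower numbered 1 of 38 (2.63%), where 0.047% of all clusters and 0.0597% of genes with a single symbol were called lower. Members called higher numbered 0, against 0.229% of all clusters. At an unadjusted limma p under 0.05, 3 members were higher (7.89%, against 4.4% of all clusters) and 5 were lower (13.2%, against 7.63%). Among genes with a single symbol, as all members are, these shares were 6.26% and 7.19%. The median difference was -0.02 over the members and -0.03 over all clusters. Of the members, 14 had a mean signal below the median of all clusters (5.25), and their differences lay between -0.10 and 0.11. Detection calls were not analysed here, so whether those 14 transcripts were above background is not known.

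**Figure D1:**
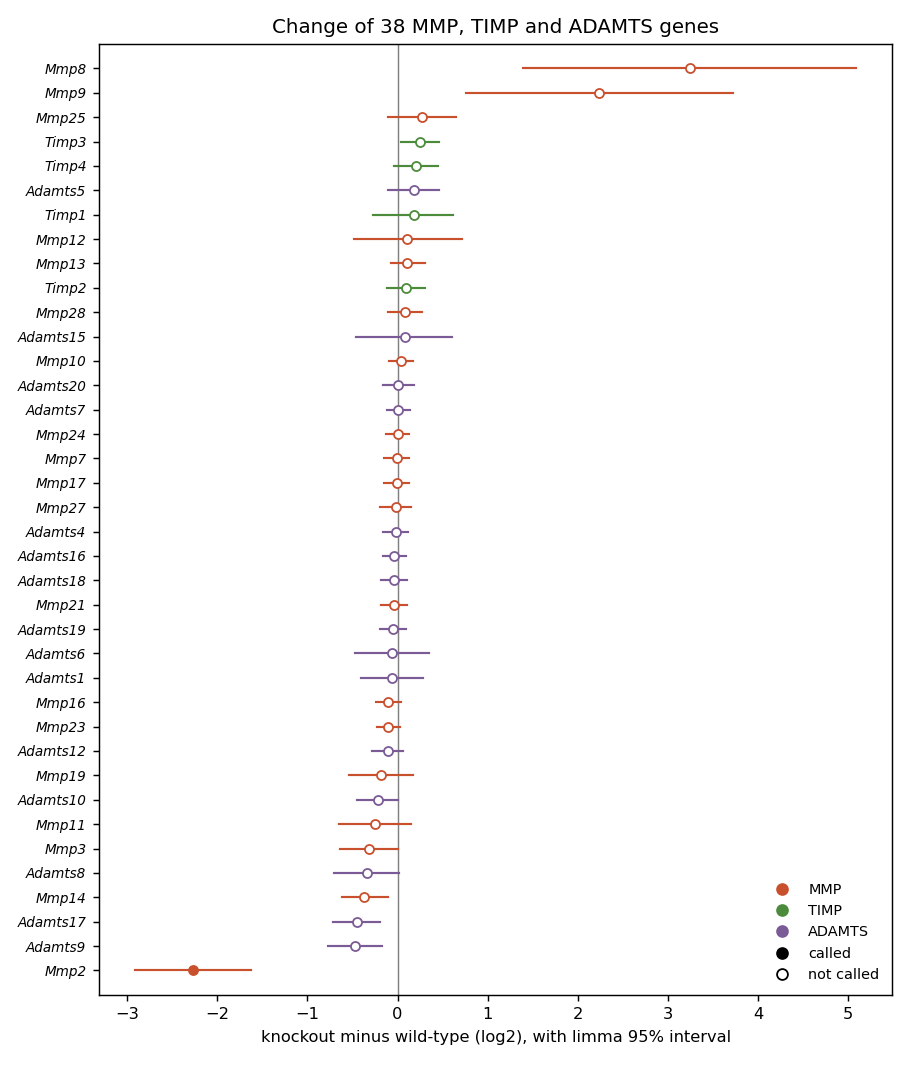
Difference in log2 signal (knockout minus wild-type, horizontal axis) for each of the 38 measured genes, with the 95% interval from limma; red marks MMPs, green TIMPs, purple ADAMTS genes, and filled circles the called genes. Mmp2 at -2.27 is the single filled circle, Mmp8 and Mmp9 lie far to the right with wide intervals, and all others lie between -0.47 and 0.27.

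Gelatinase A, which cuts denatured collagen and basement membrane collagen, was lower in every knockout lung. Mmp2 read 10.44, 10.33, 10.85 and 11.17 in the wild-type lungs (in the order of replicates 1 to 4, as in all such lists) and 8.45, 7.65, 8.98 and 8.65 in the knockout lungs. The highest knockout lung lay more than 1 log2 unit below the lowest wild-type lung, and the female knockout lung (replicate 2) was the lowest of all 8. The difference was -2.27 (SE 0.28, 95% interval -2.91 to -1.63, adjusted p = 0.0232, limma). Mmp2 is among the genes that the study itself followed up in lungs of this model, so its call here is not independent of the study. The sign was the same with each lung left out, the difference lying between -2.45 and -2.01. The call ended when wild-type replicate 3 (adjusted p = 0.0931) or else knockout replicate 1 (adjusted p = 0.0950) was left out, with males only (-1.95, adjusted p = 0.148) and with a t-test in place of limma (adjusted p = 0.195), among the alternatives that ended it.

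Gelatinase B, which cuts the same kinds of substrate, went the other way in 3 of the 4 knockout lungs. Mmp9 read 6.08, 6.00, 6.51 and 6.35 in the wild-type lungs and 8.85, 10.06, 6.29 and 8.68 in the knockout lungs. Knockout replicate 3 stayed within the wild-type range and the other 3 lay more than 2 log2 units above it. The mean difference of 2.24 (SE 0.65, 95% interval 0.76 to 3.72) did not pass the threshold (unadjusted p = 0.00751, adjusted p = 0.229, limma). Without knockout replicate 3 it was 2.97 and was called (SE 0.31, adjusted p = 0.0245). With any other single lung left out it lay between 1.71 and 2.33 and was not called.

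Collagenase 2, which cleaves triple-helical collagen and is stored in the specific granules of neutrophils, had the largest mean difference of the family. Mmp8 read 6.32, 5.78, 6.71 and 6.66 in the wild-type lungs and 9.95, 11.92, 7.18 and 9.36 in the knockout lungs. All knockout lungs lay above all wild-type lungs, with replicate 3 again the nearest to the wild-type and the female lung the highest. It was the single member for which this held (2.63% of members, against 2.83% of all clusters and 4.32% of genes with a single symbol). The difference was 3.24 (SE 0.82, 95% interval 1.39 to 5.09) and was not called (unadjusted p = 0.00329, adjusted p = 0.181, limma). Leaving out single lungs moved it between 2.46 and 4.05, the latter without knockout replicate 3, where the adjusted p was 0.0531.

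Leukolysin, a membrane-anchored MMP of neutrophils, was near the median signal of the array. Mmp25 read 5.31, 5.08, 5.34 and 5.20 in the wild-type lungs and 5.29, 6.07, 5.29 and 5.34 in the knockout lungs. The female knockout lung (replicate 2) stood alone above the other 7, and the groups overlapped. The difference was 0.27 (SE 0.17, 95% interval -0.11 to 0.65, adjusted p = 0.587) and fell to 0.08 without that lung.

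**Figure D2:**
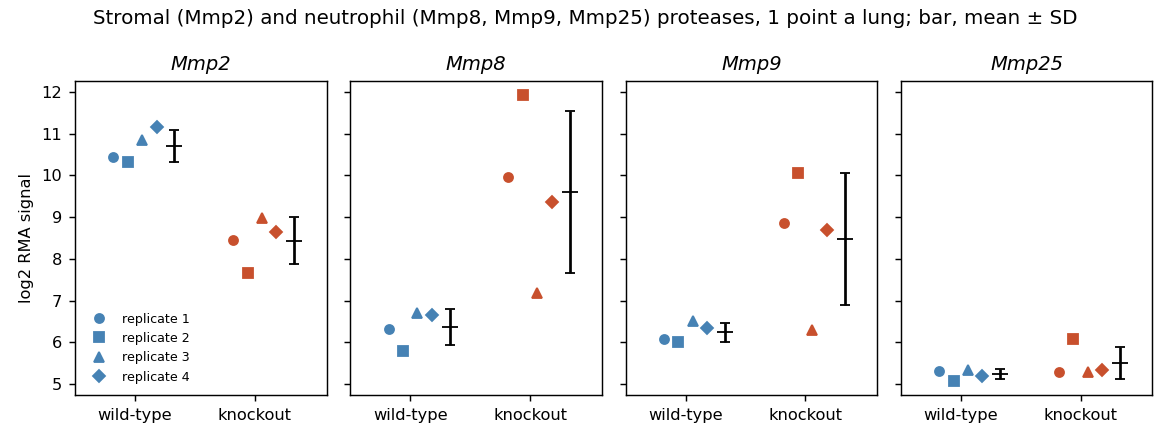
Log2 RMA signal of Mmp2, Mmp8, Mmp9 and Mmp25 in each lung (blue, wild-type; red, knockout; marker shape, replicate number), with the mean ± SD of 4 lungs beside the points. Mmp2 separates the groups downwards (8.43 ± 0.57 against 10.70 ± 0.39), Mmp8 upwards with a wide spread (9.60 ± 1.95 against 6.37 ± 0.43), and knockout replicate 3 (triangle) sits among the wild-type lungs for Mmp9.

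**Figure D3:**
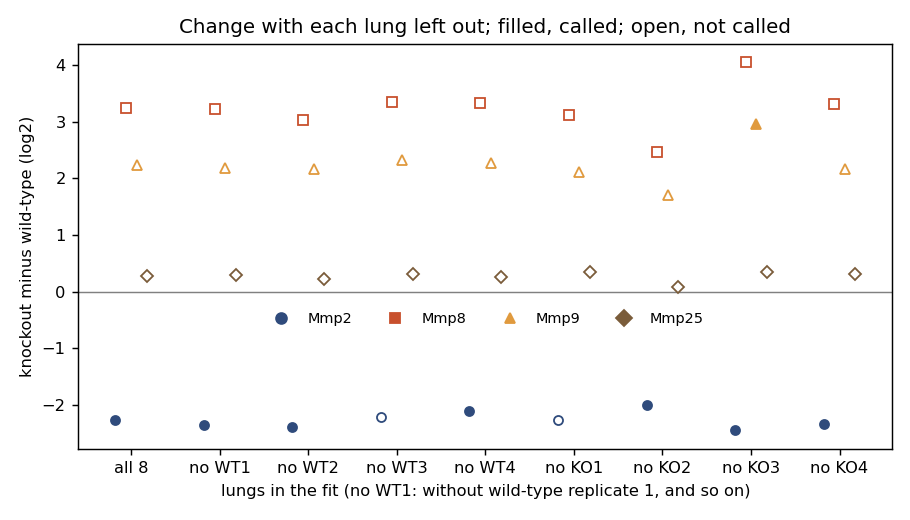
Difference (knockout minus wild-type, log2) of Mmp2, Mmp8, Mmp9 and Mmp25 with all 8 lungs and with each lung left out in turn; filled markers are called, open markers are not. The values of Mmp2 stay below -2 throughout, with open markers where wild-type replicate 3 or else knockout replicate 1 was left out, and the single filled marker above 0 is Mmp9 without knockout replicate 3 (2.97).

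Mmp2 ordered the knockout lungs in the reverse of Mmp8 and Mmp9. From the lowest to the highest, Mmp2 ordered the knockout replicates as 2, 1, 4, 3, and Mmp8 and Mmp9 ordered them as 3, 4, 1, 2. Mmp25 was highest in replicate 2 like Mmp8 and Mmp9, but its other lungs lay close together (5.29 in replicates 1 and 3, 5.34 in replicate 4). Mmp14, the activator of pro-gelatinase A, read 10.00 in replicates 1 and 2, 10.08 in replicate 4 and 10.47 in replicate 3. Apart from that tie, this was the order of Mmp2. The collagen gene Col1a1, a substrate and fibroblast product, read 9.35, 9.56, 10.07 and 10.51 in replicates 2, 1, 4 and 3, the order of Mmp2. Among wild-type lungs the directions were not opposite: Mmp2 ordered the replicates as 2, 1, 3, 4, and Mmp8 and Mmp9 as 2, 1, 4, 3. Mmp14 and Col1a1 did not keep the order of Mmp2 there. Mmp14 ordered the wild-type replicates as 4, 3, 2, 1, lowest where Mmp2 was highest, and Col1a1 as 1, 3, 2, 4. These orders rest on 4 lungs a group, were seen after the values were known and were not tested.

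Markers of neutrophils and fibroblasts were read beside these proteases. Of 16 measured neutrophil markers, 15 had higher and 1 a lower mean in the knockout, with a median difference of 1.76. None was called and 11 were higher at an unadjusted limma p under 0.05, with the granulocyte colony-stimulating factor receptor gene Csf3r at 3.16 (adjusted p = 0.0930) and the calprotectin gene S100a9 at 2.96 (adjusted p = 0.140). The mean neutrophil marker signal was 7.30 to 7.88 in the wild-type and 8.10, 9.14, 9.42 and 10.44 in knockout replicates 3, 4, 1 and 2, the same order as Mmp8 and Mmp9, and in the wild-type its order was also theirs. That wild-type order was not particular to neutrophil markers. The mean of the alveolar macrophage and monocyte markers read 9.55, 9.77, 9.83 and 9.94 in wild-type replicates 2, 1, 4 and 3. In the knockout that mean ordered the replicates as 4, 1, 3, 2. Not every neutrophil marker kept the knockout order of Mmp8 and Mmp9. Ltf, which encodes the specific-granule protein lactoferrin, read 9.88, 7.75, 10.16 and 8.57 in the knockout lungs, lowest in replicate 2 and highest in replicate 3, and differed by 0.46 (95% interval -0.80 to 1.71, adjusted p = 0.803). Camp, the cathelicidin gene of the same granules, differed by 0.05 (-0.19 to 0.28). Mpo and Cebpe, genes of immature neutrophils, had mean signals below the median of the array. Of 13 measured fibroblast markers, 10 were lower and 3 higher (median -0.27, 0 called, 5 lower at an unadjusted p under 0.05), with a mean signal of 11.49 to 11.58 in the wild-type and 10.92, 11.22, 11.35 and 11.41 in knockout replicates 2, 1, 4 and 3, the order of Mmp2. In the wild-type their order was 4, 3, 2, 1, with replicate 4 lowest for the markers and highest for Mmp2. The smallest p-values among them belonged to Cd34 (-0.58, adjusted p = 0.0842) and the basement membrane gene Npnt (-0.51, adjusted p = 0.191). The part of these cell types in the protease differences was not tested.

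**Figure D4:**
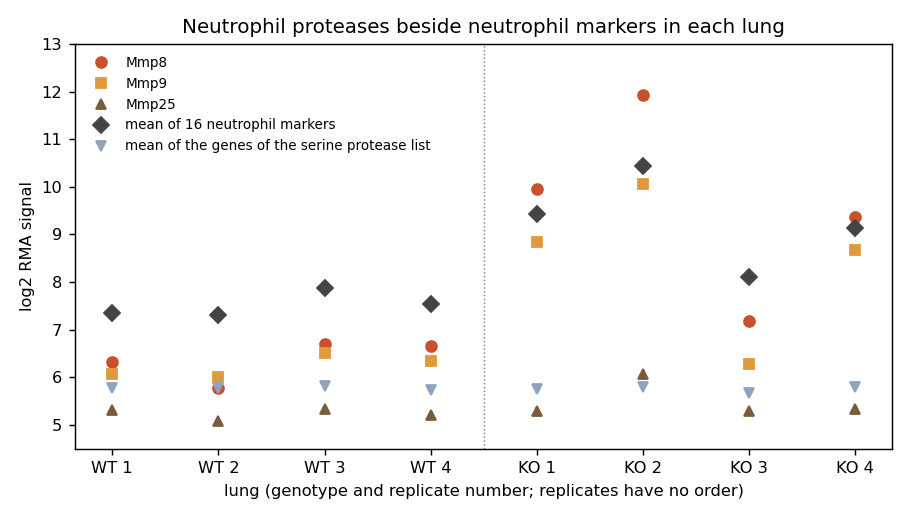
Log2 RMA signal in each of the 8 lungs for Mmp8, Mmp9 and Mmp25, beside the mean of 16 neutrophil markers and the mean of the 6 genes on the neutrophil serine protease list (pale blue). In the knockout, Mmp8, Mmp9 and the marker mean are lowest in replicate 3 (7.18, 6.29 and 8.10) and highest in replicate 2 (11.92, 10.06 and 10.44). The serine protease mean stays between 5.68 and 5.82 in all 8 lungs, but 4 of its 6 genes lie below the median signal of the array.

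The serine protease genes of neutrophils differed little between the groups, but 4 of the 6 listed were below the median signal of the array. Whether these 4 transcripts were above background is not known. Neutrophil elastase, cathepsin G and proteinase 3 are packed into azurophil granules and are transcribed early, in promyelocytes of the bone marrow. Elane differed by 0.08 (95% interval -0.15 to 0.30), Ctsg by -0.08 (-0.22 to 0.06) and Prtn3 by -0.02 (-0.15 to 0.11), all with a mean signal below the median of the array. Over the list of 6, which adds Prss57 (0.06), the inhibitor gene Serpinb1a (-0.11) and Dpp7 (-0.07), 2 were higher and 4 lower, the median difference was -0.04, and no gene had an unadjusted limma p under 0.05. The specific-granule genes Ltf and Camp were not called either. Ngp, also on the neutrophil marker list, was 1.01 higher and not called (adjusted p = 0.494, limma). It read 8.30, 9.61, 7.10 and 9.51 in the knockout lungs, lowest in replicate 3 and highest in replicate 2 like Mmp8 and Mmp9. No difference between the serine protease or granule genes and the MMPs was tested. Lcn2, whose product binds gelatinase B in neutrophils and is also made by epithelium, was 0.81 higher (adjusted p = 0.282) and was highest in knockout replicate 3 (11.27), where Mmp9 was lowest.

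Mmp8 lies in a cluster of MMP genes on chromosome 9, and its neighbours, most of them below the median signal of the array, differed little. In chromosomal order the measured genes are Mmp13, Mmp12, Mmp1b, Mmp3, Mmp1a, Mmp10, Mmp8, Mmp27, Mmp20 and Mmp7, of which Mmp1a, Mmp1b and Mmp20 are not among the 39. The nearest MMP genes on either side are Mmp10, a stromelysin, at 0.04 (95% interval -0.09 to 0.17), and Mmp27 at -0.02 (-0.19 to 0.15). Both had mean signals below the median of the array, as had Mmp13, Mmp1b, Mmp1a, Mmp20 and Mmp7. Whether these transcripts were above background is not known. Apart from Mmp8, the largest difference in the cluster was that of Mmp3, stromelysin 1, at -0.32. The clustered genes are related in sequence, and a sharing of probe signal between them was not tested.

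**Figure D5:**
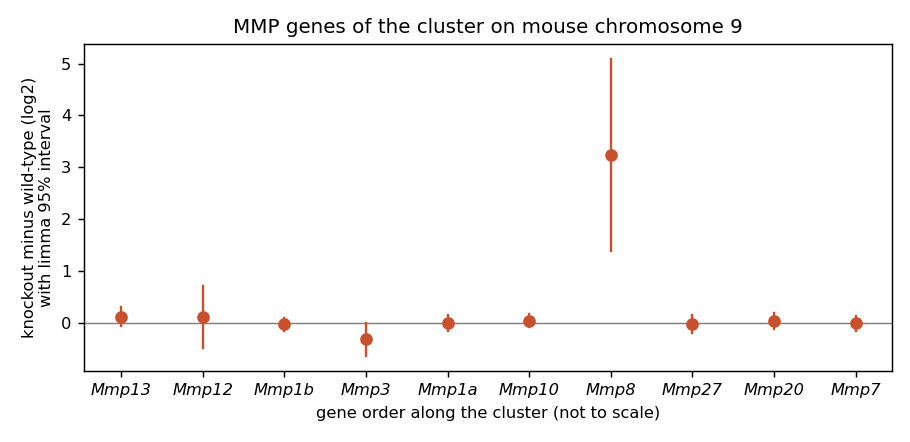
Difference (knockout minus wild-type, log2, with the 95% interval from limma) of 10 MMP genes of the chromosome 9 cluster, placed in chromosomal order and not to scale. Mmp8 at 3.24 stands above its neighbours, which lie between -0.32 and 0.11. All neighbours but Mmp3 and Mmp12 had mean signals below the median of the array.

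Promoter sequences are shown for the neutrophil genes Mmp8 and Mmp25 and for both neighbours of Mmp8, to set a gene with a large difference beside genes with almost none. They come from RefSeq on GRCm38.p6, run from 250 bases before to 50 bases after the gene's start, and are written 5′ to 3′ on the gene's strand. Capitals mark matches, on either strand, to TGANTCA (the AP-1 element common in MMP promoters), TGATGNAA (the core of the composite element bound by ATF4 with C/EBP proteins) and GAGGAA (a core of ETS factors such as PU.1). No capitals of different motifs overlap here.
Mmp8, chr9:7558179-7558478, plus strand: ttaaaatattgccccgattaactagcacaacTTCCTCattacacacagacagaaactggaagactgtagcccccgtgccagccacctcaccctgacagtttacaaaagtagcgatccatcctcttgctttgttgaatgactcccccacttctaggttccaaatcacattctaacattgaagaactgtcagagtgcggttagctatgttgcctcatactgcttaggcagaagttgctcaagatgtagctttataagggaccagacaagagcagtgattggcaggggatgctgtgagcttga
Mmp10, chr9:7502092-7502391, plus strand: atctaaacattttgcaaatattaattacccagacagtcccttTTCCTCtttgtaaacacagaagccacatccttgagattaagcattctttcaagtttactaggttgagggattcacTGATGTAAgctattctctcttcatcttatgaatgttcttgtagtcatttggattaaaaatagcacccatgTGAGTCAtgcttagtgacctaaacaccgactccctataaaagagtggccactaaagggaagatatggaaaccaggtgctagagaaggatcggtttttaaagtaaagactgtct
Mmp27, chr9:7571146-7571445, plus strand: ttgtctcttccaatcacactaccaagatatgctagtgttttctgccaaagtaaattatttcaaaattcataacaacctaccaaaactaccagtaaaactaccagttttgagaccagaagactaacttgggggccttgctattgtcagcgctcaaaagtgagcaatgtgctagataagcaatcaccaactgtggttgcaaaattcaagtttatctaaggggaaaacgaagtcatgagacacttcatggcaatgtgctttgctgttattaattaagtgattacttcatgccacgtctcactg
Mmp25, chr17:23645220-23645519, minus strand: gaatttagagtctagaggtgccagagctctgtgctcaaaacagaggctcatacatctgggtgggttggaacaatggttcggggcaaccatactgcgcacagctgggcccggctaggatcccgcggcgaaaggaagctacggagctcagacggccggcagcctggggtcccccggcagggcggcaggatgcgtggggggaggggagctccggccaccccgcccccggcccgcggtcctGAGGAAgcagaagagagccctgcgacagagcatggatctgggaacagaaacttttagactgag

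The Mmp8 window held 1 match, an ETS core starting 219 bases before the start on the reverse strand. The Mmp25 window also held 1 ETS core, 13 bases before the start. Mmp10 held an AP-1 element (63 bases before), the ATF4 and C/EBP core (133 bases before) and an ETS core (208 bases before), and Mmp27 held none of the 3. Windows on chromosome 18, where Adamts19 lies, were left out of the search. Of the 39 listed genes, 25 matched the remaining windows, with 28 windows. Among these 28, 5 windows held the AP-1 element, 1 the ATF4 and C/EBP core and 5 an ETS core. The shares were 7.81%, 3.97% and 28.3% of 32851 windows with the full 300 bases, again without chromosome 18. A match is a run of letters and not a measured site, and these windows say nothing of sites elsewhere in the genes.

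The remaining collagenase, stromelysins, matrilysin and macrophage elastase showed no called difference. Mmp3, a stromal enzyme that also activates other MMPs, read 7.37, 7.96, 7.67 and 7.56 in the wild-type lungs and 7.59, 7.12, 7.21 and 7.37 in the knockout lungs. The groups overlapped (-0.32, SE 0.14, unadjusted p = 0.0486, adjusted p = 0.412, limma). Mmp11, stromelysin 3, differed by -0.25 (95% interval -0.65 to 0.15). Mmp13, collagenase 3, Mmp10 and the epithelial matrilysin Mmp7 were below the median signal and differed by 0.11, 0.04 and -0.01. Mmp12, the elastase of macrophages, differed by 0.11 (95% interval -0.48 to 0.71) and read 7.33 in the female knockout lung against 6.00 to 6.44 in the other 7 lungs. Of 10 measured alveolar macrophage and monocyte markers 5 were higher and 5 lower (median 0.02, 0 called, with Car4 at -0.39 and Ly6c2 at 0.44), and their mean was also highest in that lung (9.98 against 9.55 to 9.94 in the others).

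Among the membrane-type MMPs, Mmp14 had the lowest p. It encodes the main activator of pro-gelatinase A at the cell surface and read 10.59, 10.55, 10.52 and 10.36 in the wild-type lungs and 10.00, 10.00, 10.47 and 10.08 in the knockout lungs. Knockout replicate 3, where Mmp2 was also highest in the group, lay within the wild-type range. The difference was -0.37 (SE 0.11, 95% interval -0.62 to -0.11) and was not called (unadjusted p = 0.00991, adjusted p = 0.252, limma). Without knockout replicate 3 it was -0.48 (adjusted p = 0.0751). Mmp16, Mmp17 and Mmp24 were below the median signal and differed by -0.10, -0.01 and 0.00. Of the other MMPs, Mmp19 differed by -0.18, Mmp23 by -0.10, Mmp28 (epilysin) by 0.08 and Mmp21 by -0.04, each with an interval that spans 0.

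All 4 TIMPs had slightly higher means in the knockout and none was called. Timp3, which is bound to the matrix and inhibits ADAMTS enzymes as well as MMPs, read 13.11, 12.75, 12.90 and 12.92 in the wild-type lungs and 13.30, 13.25, 13.13 and 13.00 in the knockout lungs. The groups overlapped at their edges (0.25, SE 0.09, unadjusted p = 0.0270, adjusted p = 0.342, limma). Timp2, which forms the complex of Mmp14 with pro-gelatinase A, read 13.86, 13.69, 13.46 and 13.71 in the wild-type lungs and 13.70, 13.67, 13.81 and 13.90 in the knockout lungs. It differed by 0.09, with a 95% interval of -0.12 to 0.30 that leaves out a change the size of that of Mmp2 in either direction. Timp4 read 6.31, 5.96, 6.07 and 5.79 in the wild-type lungs and 6.32, 6.25, 6.28 and 6.11 in the knockout lungs (0.21, 95% interval -0.04 to 0.45). Timp1, an inhibitor that inflammation induces, read 5.35, 5.35, 5.53 and 5.35 in the wild-type lungs and 5.28, 5.38, 6.26 and 5.36 in the knockout lungs. Its mean difference of 0.18 (adjusted p = 0.780) came with a single high lung, knockout replicate 3, and was -0.05 without it.

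Among the ADAMTS genes 11 of 15 had lower means in the knockout and none was called. Lower means were also the more common direction over the array, in 40217 of 65956 clusters and 17679 of 30176 genes with a single symbol. Adamts9, a proteoglycan-cutting enzyme, read 8.93, 9.41, 8.89 and 9.25 in the wild-type lungs and 8.47, 8.69, 8.87 and 8.57 in the knockout lungs. Adamts17, whose human counterpart is mutated in a Weill-Marchesani-like syndrome of connective tissue, read 6.73, 6.44, 6.74 and 6.33 in the wild-type lungs and 5.94, 6.05, 6.13 and 6.31 in the knockout lungs. In both genes the knockout lungs lay just below all wild-type lungs. With Mmp2 they were the 3 members for which this held (7.89%, against 4.41% of all clusters and 4.67% of genes with a single symbol). Adamts9 differed by -0.47 (SE 0.13, adjusted p = 0.215) and Adamts17 by -0.45 (SE 0.12, adjusted p = 0.187), both at under 1.5-fold. Adamts8 differed by -0.34 (95% interval -0.70 to 0.02) and Adamts10, a gene of human Weill-Marchesani syndrome, by -0.22 (-0.45 to 0.01). The proteoglycanases Adamts1, Adamts5 and Adamts15 differed by -0.06, 0.18 and 0.08, and Adamts4, the other classic aggrecanase, by -0.02 at a signal below the median. Adamts6 and Adamts12 differed by -0.06 and -0.11, and Adamts7, Adamts16, Adamts18, Adamts19 and Adamts20, all below the median signal, by -0.05 to 0.01.

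Other genes of matrix turnover were read from lists beside the family. Of 19 measured matrix substrates 15 were lower and 4 higher (median -0.18, 3 called lower), the called genes being the interstitial collagens Col3a1 (-2.46), Col1a1 (-2.03) and Col1a2 (-1.47), while the ADAMTS substrate Vcan (versican) differed by 0.04 (95% interval -0.17 to 0.26). The study followed up collagen genes and Thbs1 in this model as well, so these counts are not independent of it. Of 18 genes of activation and uptake 7 were higher and 11 lower (median -0.08), with 2 called higher, Thbs1 (2.80), whose product thrombospondin binds gelatinases, and Itgb3 (3.30), both also abundant in platelets. All 7 measured platelet markers had higher means (median 2.55, 2 called, Itgb3 and Itga2b, with Itga2b at 2.06; mean signal 8.05 to 10.31 in wild-type and 10.51 to 11.77 in knockout lungs). In the same list the collagen uptake receptor gene Mrc2 was 0.92 lower in the knockout (SE 0.18, adjusted p = 0.0913) and the procollagen C-proteinase enhancer gene Pcolce 0.60 lower (adjusted p = 0.176). No gene was called in the other lists of matrix turnover. Of 16 ADAMTS-like and ADAM genes 11 were higher and 5 lower (median 0.03), with the smallest p-values for the microfibril-associated genes Adamtsl2 (-0.81, adjusted p = 0.107) and Adamtsl3 (-0.26, adjusted p = 0.305), and the leukocyte sheddase gene Adam8 differed by 0.71 (adjusted p = 0.358). Of 13 cathepsins and cystatins 4 were higher and 9 lower (median -0.14), with Cst3, which encodes cystatin C, at -0.71 (adjusted p = 0.0506) and the leukocyte cystatin gene Cst7 at 0.38 (adjusted p = 0.130). Of 11 genes of the plasminogen system and serine protease inhibitors 4 were higher and 7 lower (median -0.04), with the collagen chaperone gene Serpinh1 at -0.67 (adjusted p = 0.211) and the serine protease gene Htra1 at -0.31 (adjusted p = 0.239).

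The remaining cell type markers held no called gene. Of 8 alveolar and airway epithelial markers 3 were higher and 5 lower (median -0.10), with the water channel gene Aqp5 at -0.41 (adjusted p = 0.132) and Lamp3 at -0.48 (adjusted p = 0.291). Of 6 endothelial markers 4 were higher and 2 lower (median 0.21), with Vwf, which platelets also hold, at 0.76 (adjusted p = 0.0813) and Pecam1 at 0.32 (adjusted p = 0.168). Smooth muscle and pericyte markers had 5 higher and 4 lower means (median 0.23), with Notch3 at -0.17 and Myh11 at 0.61, and mesothelial markers 1 higher and 4 lower (median -0.22), with Krt19 at 0.30 and Msln at -0.25. Mean signals of the mesothelial markers ranged from 6.99 to 9.39 in wild-type and 6.85 to 8.60 in knockout lungs, wider than those of epithelial markers (15.79 to 15.92 and 15.62 to 15.76).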

How the data were processed

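Total RNA of whole lungs had been amplified, biotin-labelled and hybridised to 1-colour mouse arrays (Clariom D). The deposited values are log2 signals per transcript cluster that the authors made by RMA in Transcriptome Analysis Console, with its defaults. RMA corrects background, normalises quantiles and summarises probes, and a shift shared by most transcripts is lost in the quantile step. The deposited log2 values ran from 2.09 to 19.68, and 457 clusters exceeded 16 on every array, so folds hold on the deposited scale only. Arrays have no read depth, and the number of animals limits the precision. Median log2 signal was 5.21 to 5.29 an array and pairwise correlations were 0.988 to 0.996.

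Groups came from the sample titles. Symbols came from the platform annotation (30638 clusters with 1 symbol, 2176 with several, 33142 with none), and chromosomal order and promoters from RefSeq on GRCm38.p6. No build is given for the arrays in the sources used here. All 65956 clusters entered a two-sided fit without covariates (R 4.3.3; lmFit then eBayes of limma 3.58.1), and Benjamini-Hochberg adjustment ran over all of them. Calls used the thresholds of the study's methods for these arrays, 0.05 for the adjusted p and 1.5 for the fold. The fit was tested on simulated data. Per-lung values are given for Mmp2, Mmp8, Mmp9, Mmp25, the TIMPs and members called or with an unadjusted p under 0.05. From each list the 2 genes with the smallest p were to be named. Col1a2, Vcan, Lcn2, Ltf, Camp, Ngp, Mrc2, Pcolce and Adam8 were chosen after values were seen. So were other serine proteases of neutrophils and the MMP genes of chromosome 9 outside the family list. The members and lists were chosen with earlier results of these data known. Each array was taken as 1 animal, and p-values measure the spread between these samples. The alternatives left out each lung or the females, took sex or the replicate number into the fit, centred arrays on their medians or applied cyclic loess, dropped dim clusters, kept 1 cluster per gene, weighted arrays, used eBayes with trend and robust options or the methods' t-test (given there for comparisons of other measurements, not for the arrays), and moved the threshold. Figures were drawn with matplotlib 3.10.9.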

Additional observations from a re-analysis of the deposited data

Results flagged for a closer look

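Among 38 genes in 2 groups of 4 lungs, 76 sets in all, 6 had a lung set apart from the other 3 of its group by Dixon's criterion, which compares the gap to the nearest lung with the range of the group. Chance gives about 1 in 20. Timp1 read 6.26 in knockout replicate 3, against 5.28 to 5.38 in the other knockout lungs, and 5.53 in wild-type replicate 3, against 5.35 in the other wild-type lungs. Mmp25 read 6.07 in knockout replicate 2, against 5.29 to 5.34. Adamts6 read 6.95 in wild-type replicate 2, against 7.41 to 7.45. Adamts19 read 4.92 in knockout replicate 4, against 4.81 to 4.82, and Mmp10 read 4.30 in wild-type replicate 1, against 4.41 to 4.43, both below the median signal of the array.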

How the results depend on the processing

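The fall of Mmp2 kept its call with sex as a covariate, array weights, median-centring, cyclic loess, eBayes with trend and robust options, either filter on dim signal, and genes reduced to 1 cluster each (every member has just 1). It lost the call with the methods' t-test, which the study does not name for these arrays (-2.27, adjusted p = 0.195), with males only (-1.95, adjusted p = 0.148) and with the replicate number as a block (-2.27, adjusted p = 0.0651), and these 3 fits called 0 members. The methods' t-test called 0 of all clusters (7261 at an unadjusted p under 0.05), the replicate block 0 (7694) and males only 4, against 182 with all lungs by limma (7932). An adjusted p of at most 0.10 gave 315. Leaving out single lungs gave 8 to 266 calls (8 when wild-type replicate 3 or else knockout replicate 1 was left out, 65 and 89 for knockout replicates 2 and 3, 82 for wild-type replicate 2, and 145 higher and 121 lower for wild-type replicate 1, against 151 and 31), and 0 to 2 called members, the 2 being Mmp2 and Mmp9 without knockout replicate 3. With wild-type replicate 1, the array nearest the knockout in Atf4, left out, Mmp2 differed by -2.35 (adjusted p = 0.0322). Same-numbered lungs did not deviate together across clusters (correlations -0.0377, 0.0613, 0.0274 and -0.187, 0 of 8 lungs correlating best with its own number). With 4 lungs a group these correlations cannot exclude a pairing by number. The replicate block moved the SE of Mmp2 from 0.28 to 0.15 and that of Mmp8 from 0.82 to 0.84. In fits with fewer lungs or degrees of freedom a lost call does not show that the lung left out drove it, and the cause of the other losses was not tested.

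The differences of Mmp8, Mmp9 and Mmp25 kept their sign and stayed uncalled in every alternative that kept all lungs or the males, between 2.58 and 3.27, 1.80 and 2.28, and 0.12 and 0.29. The filter at the upper quartile of signal left 13 members, without Mmp9 and Mmp25. With single lungs left out the ranges were -2.45 to -2.01 for Mmp2, 2.46 to 4.05 for Mmp8, 1.71 to 2.97 for Mmp9 and 0.08 to 0.34 for Mmp25. Only members that differed by at most 0.18 changed sign. With males only the values were 0.02 for Mmp19, -0.21 for Adamts15, 0.14 for Adamts6, -0.14 for Mmp12 and -0.03 for Adamts7. With array weights they were 0.02 for Adamts1, -0.03 for Mmp12 and -0.01 for Adamts20. With median-centring or cyclic loess Mmp27 was at 0.01 and 0.00, Mmp17 at 0.01 and 0.01, Adamts4 at 0.00 and 0.00, and Mmp7 at 0.01 and 0.01. With single lungs left out the sign also changed for Adamts1 (-0.19 to 0.03), Adamts15 (-0.11 to 0.25), Adamts6 (-0.18 to 0.10), Mmp12 (-0.18 to 0.26), Timp1 (-0.05 to 0.27), Adamts20 (-0.03 to 0.05), Adamts7 (-0.01 to 0.04), Mmp27 (-0.06 to 0.02), Mmp17 (-0.04 to 0.02), Adamts4 (-0.06 to 0.01), Mmp7 (-0.04 to 0.03) and Mmp24 (-0.03 to 0.03).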

Other observations

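The difference between genotypes was also read by sex, as the female minus the male difference, with 1 female lung a group, so that each value rests on a single pair of females. For Mmp8 this was 2.63 (limma interaction, adjusted p = 0.778) and for Mmp2 -1.25 (adjusted p = 0.709). Mmp12 (1.03), Mmp25 (0.61) and Mmp19 (-0.81) had the smallest p-values among the members, each with an adjusted p of 0.684, and 0 of all clusters passed an adjusted p of 0.05 (limma) in this test.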
